A study of Mus musculus with 6 samples.

Results

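Atg9b and 9 further genes of the core autophagy machinery were followed in mouse mammary tumor cells with and without depletion of CdGAP. The 10 genes (Ulk1, Ulk2, Becn1, Atg9a, Atg9b, Atg2a, Atg5, Atg7, Atg16l1 and Sqstm1) were taken by symbol from a table of 41214 genes, and all 10 were found and passed the filter on low reads. Atg9b was chosen by its large difference between the groups in these same libraries, and the others were chosen by their role as genes to set beside it, with those results known. The values of the 10 genes in this contrast are therefore given as a description. How many of them lie past the threshold of the fit across all genes is stated beside the share of all genes that do, and supports nothing.

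The cells were explants of mammary tumors formed by NMuMG, a mouse mammary epithelial line, carrying Neu-NT, an oncogenic version of the ErbB2 receptor. All were grown in serum-containing medium with insulin and the selection drug G418. The shCON group (3 libraries) has the genotype label Neu-NT shCON, a control hairpin, and the shCdGAP group (3 libraries) has the label Neu-NT shCdGAP, a hairpin against CdGAP. The cell type label names shCTL in all 6 samples, so the genotype and title were used to group them. The study asked how CdGAP, the product of Arhgap31, which switches off the small GTPases Rac1 and Cdc42, takes part with Zeb2 in repressing E-cadherin. The labels give neither the hairpin sequence nor whether a group is 1 clone, and do not name separate cultures behind the libraries. The p-values thus cover the spread among these 6 libraries, and that spread may be technical.

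Total RNA was sequenced to 19176540 to 26824249 gene-assigned reads per library. The hairpin's target Arhgap31 lay at 0.149, 0.826 and 0.748 FPKM (fragments scaled for gene length and sequencing depth) in shCdGAP replicates 1, 2 and 3 and at 1.19, 1.30 and 1.35 in shCON, so every shCdGAP library was below every shCON library. In the fit across all genes it did not pass the threshold (log2 difference -0.56, SE 0.19, adjusted p = 0.0836, limma). Without shCdGAP replicate 1 it did (log2 difference -0.35, SE 0.081, adjusted p = 0.0157). Replicate 1 of shCdGAP, with the lowest Arhgap31, stood apart from its group in many autophagy genes as well, and results are given with and without it. Keratins of simple epithelium were abundant in each library (Krt8 at 1491 to 3022 FPKM, Krt18 at 1789 to 2901). Of the 8 epithelial markers, Cldn3 was at 0 in all 6 libraries, Cldn4 at 0.0859 FPKM or less, and Epcam at 0 in all shCdGAP libraries. Cdh1, encoding E-cadherin, was at 37.9 to 57.2 FPKM in shCON and 152 to 184 in shCdGAP. Of the markers of other cell types, Ptprc was at most 0.0197 FPKM, Kdr at most 0.0142, and Lum, Acta2, Adgre1 and Plin1 were at 0 in all 6 libraries. Others were measurable: Cd68 reached 17.3 FPKM, Fabp4 3.98, Csf1r 1.14, Krt5 0.717 and Pdgfra 0.684. These are bulk libraries, in which fewer cells of a kind and less RNA per cell cannot be told apart.

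Autophagy encloses cytoplasm in a newly built vesicle, the autophagosome, which then fuses with the lysosome for degradation. The ULK kinases start the process, a lipid kinase complex containing Beclin 1 marks the membrane, and ATG9 proteins, which are membrane-spanning lipid scramblases, supply and grow it together with the lipid-transfer protein ATG2. A conjugation system built on ATG7, ATG5 and ATG16L1 then attaches ATG8 proteins (LC3 and GABARAP) to the membrane, where cargo receptors such as p62, the product of Sqstm1, bind. Mammals have a pair of ATG9 genes: Atg9a is widely expressed, and Atg9b is expressed in fewer tissues.

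Atg9b (ENSMUSG00000038295) lies on chromosome 5 from 24384181 to 24392143 of GRCm38 (mm10), on the minus strand. The 250 bases upstream of its RefSeq start (build GRCm38.p6, chr5:24392144-24392393) are shown because this gene had the largest difference of the 10, beside those of Ulk2 (chr11:61855093-61855342, minus strand), the member with the largest difference in the opposite direction. Capitals mark the E2-box, CACCTG or its complement CAGGTG, a motif that Zeb2 and Snail factors bind. Both sequences are from RefSeq and run 5′ to 3′ on the gene's strand.

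Atg9b: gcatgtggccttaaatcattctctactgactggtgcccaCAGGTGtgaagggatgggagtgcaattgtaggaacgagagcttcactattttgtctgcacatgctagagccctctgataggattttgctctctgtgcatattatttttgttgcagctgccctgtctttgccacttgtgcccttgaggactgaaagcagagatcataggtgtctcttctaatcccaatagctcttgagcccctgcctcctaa
Ulk2: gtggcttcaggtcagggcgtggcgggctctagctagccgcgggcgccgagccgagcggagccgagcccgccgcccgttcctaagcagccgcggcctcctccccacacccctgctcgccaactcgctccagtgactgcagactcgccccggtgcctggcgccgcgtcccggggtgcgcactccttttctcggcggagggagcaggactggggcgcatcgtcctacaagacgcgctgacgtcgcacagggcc

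The Atg9b sequence holds 1 CpG dinucleotide and that of Ulk2 holds 31. In the RefSeq table, 8 of the 10 genes matched a window of 300 bases, from 250 before to 50 after the start. CpG counts in these windows were 2 for Atg9b, 4 for Atg7, 18 for Atg9a, 20 for Sqstm1, 24 for Atg5, 26 for Ulk1, 28 for Atg2a and 45 for Ulk2, against a median of 7 over all 32851 windows. Atg9b thus had the fewest of the 8, and 23.3% of all windows held as few. The window of Atg7 lies inside the gene as GENCODE annotates it, and describes that RefSeq start. Both strands of each window were searched. CACCTG was found in Atg9b alone of the 8, at 211 bases before the start and on the opposite strand, and 20.2% of all windows held it. CACGTG, the core of the element bound by the lysosomal regulator TFEB, was found 14 bases before the start of Atg5 and 132 bases before that of Atg7, and in 7.15% of all windows. The 2 motifs do not overlap in these windows, and a match describes letters, not binding.

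**Figure D1:**
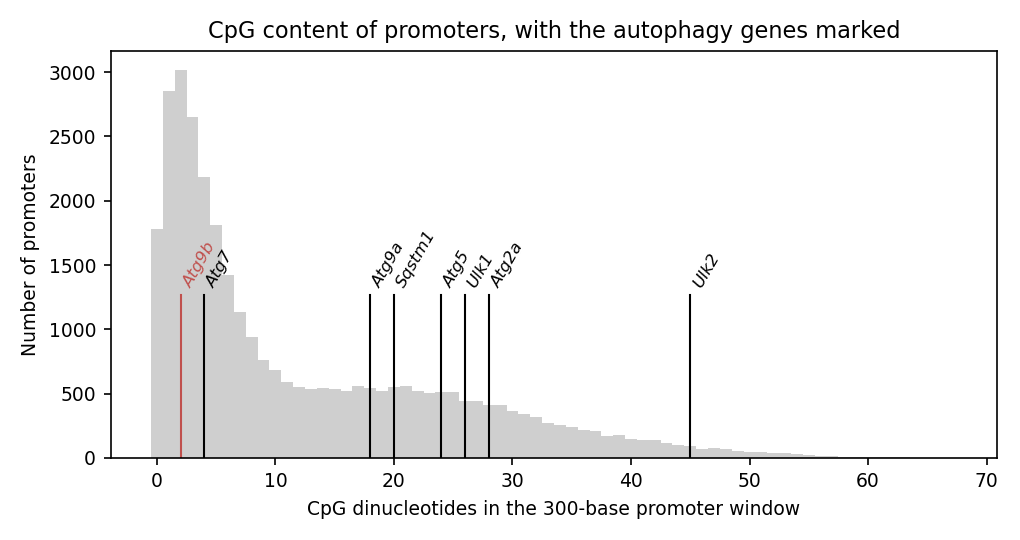
Number of promoter windows of 300 bases (vertical axis) by their count of CpG dinucleotides (horizontal axis), over all 32851 RefSeq windows, with lines at the 8 autophagy genes. Atg9b (red) holds 2 and Atg7 holds 4, whereas the other 6 hold 18 to 45.

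Atg9b was far lower in CdGAP-depleted cells. Its FPKM was 29.1, 30.4 and 30.9 in shCON replicates 1, 2 and 3 and 0.864, 1.42 and 1.29 in shCdGAP. The reads behind these values were 2217, 3299 and 3263 in shCON and 78, 123 and 126 in shCdGAP. The libraries of each group lay close together and the groups were far apart. Mean FPKM was 30.1 ± 0.940 in shCON and 1.19 ± 0.290 in shCdGAP (SD, n = 3), 25.3-fold lower, and the log2 difference of FPKM + 1 was -3.84 (SE 0.13). That was the 12th lowest of 13483 tested genes. Within shCON, 83.3% of tested genes had a lower mean than Atg9b, and within shCdGAP 19.2% did. The level remained above 0 in each shCdGAP library.

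The last 294 bases of Atg9b overlap exons of Nos3, the endothelial nitric oxide synthase gene, which runs on the opposite strand. No source used here says how strand was handled, so reads of both genes in that stretch cannot be told apart. Nos3 had 2 reads in shCON replicate 1 and 0 in the other 5 libraries. Summed levels of some marker lists of other cell types were lower in shCdGAP as well, most of them low or carried by 1 gene. The sum of 7 endothelial markers, Nos3 included, was 0.350 to 0.387 FPKM in shCON and 0.00851 to 0.0681 in shCdGAP. Only 2 of the 7, Tek and Vwf, had enough reads to be tested. Neither passed the threshold (adjusted p = 0.0589 and 0.262, limma). The sum of 5 myoepithelial markers was 0.488 to 0.752 and 0.00659 to 0.0413 FPKM, in shCON nearly all Krt5 (0.473 to 0.717), with Acta2 at 0. That of 4 adipocyte markers, nearly all Fabp4, was 2.19 to 3.98 and 0.275 to 1.01 FPKM, with Plin1 at 0, and that of 7 fibroblast markers overlapped (0.808 to 0.947 and 0.598 to 1.10). The 7 immune markers summed to 13.2 to 17.9 FPKM in shCON and 3.07 to 9.68 in shCdGAP, most of it Cd68, with Adgre1 at 0. Csf1r of that list had the higher mean in shCdGAP, 0.786 FPKM against 0.383, with groups that overlapped. In the fit across all genes Krt5, Fabp4 and Cd68 were called lower (adjusted p = 0.00188, 0.0115 and 0.0465, limma), where 11.1% of tested genes were. Csf1r, Col1a1 and Pdgfra were tested and not called. The part of these lists in the difference of Atg9b was not tested. Gm15587, annotated as an antisense gene, lies 566 bases away on the same strand as Atg9b, within the span of Nos3. It was at 0.0275, 0.0871 and 0.0298 FPKM in shCON and at 0 in every shCdGAP library. Abcb8, a mitochondrial transporter gene that starts 1519 bases beyond the start of Atg9b on the opposite strand, stood at 9.18, 10.3 and 10.6 FPKM in shCON and at 11.9, 9.49 and 9.15 in shCdGAP. Its groups overlapped, and its log2 difference was 0.014 (SE 0.13, adjusted p = 0.954, limma).

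Atg9a (chromosome 1, 75180860 to 75192196, minus strand) encodes the other ATG9 protein. It stood at 6.53, 5.19 and 5.16 FPKM in shCON replicates 1, 2 and 3 and at 7.13, 5.70 and 5.20 in shCdGAP. The groups overlapped, the log2 difference was 0.08 (SE 0.15), and replicate 1 was the highest library of each group. Transcripts of Atg9a and Atg9b share 0 exact stretches of 30 bases in the GENCODE annotation. Stretches alike but for mismatches were not examined. Added together, both genes gave 35.6, 35.6 and 36.1 FPKM in shCON and 7.99, 7.12 and 6.48 in shCdGAP. Atg9b made up 81.7%, 85.4% and 85.7% of that sum in shCON replicates 1, 2 and 3, and 10.8%, 19.9% and 19.8% in shCdGAP. The gene with the higher level was thus Atg9b in every shCON library and Atg9a in every shCdGAP library, with Atg9a at a similar level throughout. Ankzf1 shares 46 exonic bases with Atg9a on the opposite strand and was at 3.05 to 8.25 FPKM, highest in shCdGAP replicate 1. Gm29253, on the same strand as Atg9a, shares 1832 of its 5762 exonic bases and was at 0 to 0.00871 FPKM. No source used here says how reads in that stretch were assigned. The level of Atg9a, and its share of the sum with Atg9b, may thus be understated.

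**Figure D2:**
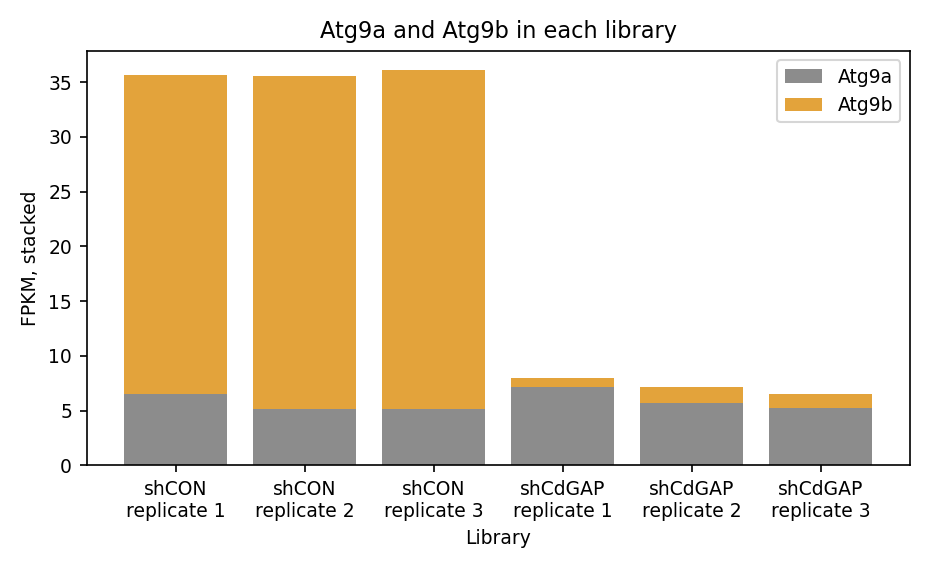
Level of Atg9a (grey) and Atg9b (orange) in FPKM, stacked (vertical axis, from 0), in each of the 6 libraries (horizontal axis). The stacks reach 35.6 to 36.1 FPKM in shCON and 6.48 to 7.99 in shCdGAP, and the grey part is at 5.16 to 7.13 in all 6.

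The kinase genes that start autophagy were at moderate levels. Ulk1 (chromosome 5, 110784488 to 110810097, minus strand) stood at 11.2, 11.3 and 10.8 FPKM in shCON and at 16.0, 12.5 and 10.9 in shCdGAP, with groups that overlapped and a log2 difference of 0.21 (SE 0.15). Ulk2 (chromosome 11, 61775649 to 61855073, minus strand) stood at 4.68, 4.19 and 4.26 FPKM in shCON and at 12.7, 6.39 and 5.64 in shCdGAP. Every shCdGAP library of Ulk2 was above every shCON library, and replicate 1 was at 2.11 times the mean of replicates 2 and 3. The log2 difference was 0.71 (SE 0.28), and 0.38 (SE 0.095) without that replicate. As a share of the Ulk1 and Ulk2 levels together, Ulk2 was 27.0% to 29.4% in shCON and 33.8% to 44.2% in shCdGAP. Becn1 (chromosome 11, 101285952 to 101302286, minus strand), the Beclin 1 subunit of the lipid kinase complex, stood at 17.2, 19.0 and 19.3 FPKM in shCON and at 17.5, 18.4 and 19.3 in shCdGAP. Its groups covered nearly the same range, with a log2 difference of -0.0063 (SE 0.094). Becn1 shares 3104 exonic bases with Cntd1 on the opposite strand, and Cntd1 was at 0.0594 FPKM or less.

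Atg2a (chromosome 19, 6241668 to 6262335, plus strand), the lipid-transfer partner of ATG9, stood at 12.9, 12.8 and 12.8 FPKM in shCON and at 12.5, 9.53 and 7.89 in shCdGAP. The shCdGAP libraries were all lower, replicate 1 barely so, and the log2 difference was -0.36 (SE 0.16), or -0.52 (SE 0.095) without replicate 1. Atg7 (chromosome 6, 114643097 to 114860614, plus strand), the activating enzyme of the conjugation system, likewise had its highest shCdGAP library in replicate 1 and all of them below shCON, at 10.4, 10.4 and 10.7 FPKM in shCON and 9.81, 7.10 and 6.81 in shCdGAP. Its log2 difference was -0.38 (SE 0.15), and -0.53 (SE 0.075) without replicate 1. Atg16l1 (chromosome 1, 87755870 to 87792428, plus strand), which places the conjugation complex on the membrane, stood at 5.73, 6.11 and 6.08 FPKM in shCON and at 4.47, 4.58 and 4.57 in shCdGAP. Here replicate 1 was close to its group, and the log2 difference was -0.33 (SE 0.088). Atg5 (chromosome 10, 44268358 to 44364291, plus strand), part of the same complex, stood at 17.8, 17.2 and 16.9 FPKM in shCON and at 16.3, 16.4 and 18.3 in shCdGAP, with groups that overlapped and a log2 difference of -0.024 (SE 0.091).

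Sqstm1 (chromosome 11, 50199366 to 50210827, minus strand), the cargo receptor gene, had the highest level of the 10 and the widest spread. It stood at 216, 151 and 163 FPKM in shCON and at 193, 72.9 and 75.4 in shCdGAP. Replicate 1 was the highest library in each group, and shCdGAP replicate 1 lay within the range of shCON, while replicates 2 and 3 were below it. The log2 difference was -0.77 (SE 0.40), and -1.22 (SE 0.16) without shCdGAP replicate 1. Mrnip shares 580 exonic bases with Sqstm1 on the opposite strand and was at 1.75 to 2.35 FPKM.

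By group mean the order of levels in shCON was Sqstm1, Atg9b, Becn1, Atg5, Atg2a, Ulk1, Atg7, Atg16l1, Atg9a and Ulk2. The libraries of Becn1 and Atg5 overlapped, as did those of Atg16l1 and Atg9a. In shCdGAP the order was Sqstm1, Becn1, Atg5, Ulk1, Atg2a, Ulk2, Atg7, Atg9a, Atg16l1 and Atg9b. Atg9b moved from place 2 to place 10, and Ulk2 from place 10 to place 6. From Ulk1 to Atg9a each neighbour in this second order overlapped the next, as did Becn1 and Atg5.

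**Figure D3:**
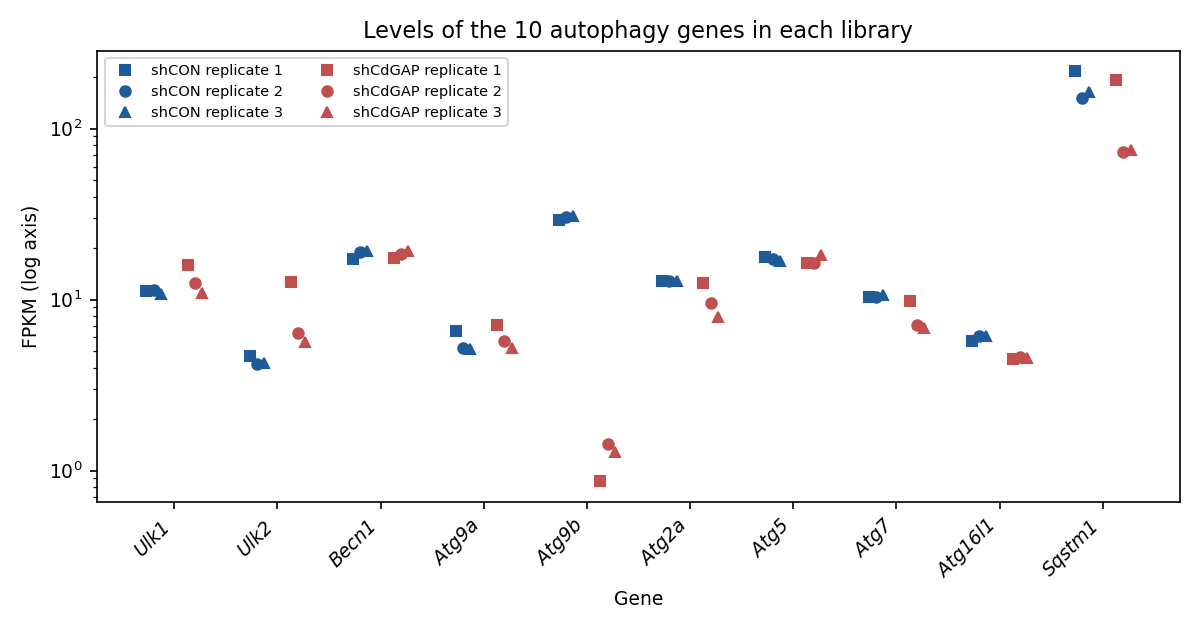
FPKM (vertical axis, log scale) of the 10 genes (horizontal axis) in each library, shCON in blue and shCdGAP in red, with a marker shape for each replicate number. Atg9b separates by a ratio of means of 25.3, and shCdGAP replicate 1 (red square) lies above replicates 2 and 3 for Ulk1, Ulk2, Atg9a, Atg2a, Atg7 and Sqstm1.

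In the fit across all tested genes (limma, adjusted p under 0.05), 2 of the 10 genes, Atg9b and Atg16l1, were past the threshold, both lower, where 21.0% of tested genes were. Without shCdGAP replicate 1, 6 of 10 were past it (Ulk2 higher, and Atg9b, Atg2a, Atg7, Atg16l1 and Sqstm1 lower), where 39.9% of tested genes were. With the replicate number as a block Atg9b alone was, where 18.2% of tested genes were. The groups did not overlap for 5 of the 10 (Ulk2, Atg9b, Atg2a, Atg7 and Atg16l1), against 44.1% of tested genes. In the authors' deposited table, 3 of the 10 were past an adjusted p of 0.05, where 23.8% of genes were. These were Atg9b (log2 fold change -4.55, SE 0.21), Atg16l1 (-0.39, SE 0.11) and Ulk2 (0.86, SE 0.33). As the genes were chosen on this contrast, nothing is read from these counts. The median log2 difference was -0.18 over the 10 genes, -0.024 over the 9 without Atg9b and -0.0100 over all tested genes.

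Genes with a provisional symbol, such as Gm or Rik names, were left out of the search for patterns like that of Atg9b. The nearest of the other tested genes over the 6 libraries were Procr, Ptgs2os2, Micu2, Klhl13 and Qrfp. Nearness was the root mean square difference of log2(FPKM + 1) values, each gene centred on its own mean, and was 0.123, 0.160, 0.168, 0.169 and 0.172 for these 5. Procr, the endothelial protein C receptor gene, was at 13.7 to 13.8 FPKM in shCON and at 0.0224 to 0.0431 in shCdGAP. All 5 were above 10 FPKM in each shCON library and below 0.44 in each shCdGAP library. Adding 1 FPKM narrows differences between low values. Without it the fall was steeper for Procr (mean FPKM 13.8 in shCON and 0.0350 in shCdGAP) and Micu2 (12.2 and 0.0250) than for Atg9b (30.1 and 1.19). Among autophagy genes the nearest was Ctsl, at 1.51, so none of those examined came close to Atg9b.

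The wider pathway was read from 9 lists holding 81 further genes of autophagy, all of which passed the filter. Of these, 2 were higher in shCdGAP and 4 lower (limma, adjusted p under 0.05), a share of 7.41% against 21.0% of all tested genes. In all tested genes 9.92% were higher and 11.1% lower. The median log2 difference of the 81 was -0.0091, beside -0.0100 over all tested genes. A ratio of group means between 0.667 and 1.5 was seen in 70 of them. No share of all tested genes is given for that range, so nothing is read from this count. Groups did not overlap for 26 (32.1%, against 44.1% of tested genes). With the replicate block 5 were called (6.17%, against 18.2%). Tfeb, Epg5 and Ctsl were called there as well, joined by Mlst8 (higher) and Bcl2l1 (lower), which are named after their values were seen, and Uvrag, Rptor and Tsc2 were not (adjusted p = 0.0527, 0.0572 and 0.0557). The authors' deposited table had 7 of the 81 past its threshold, 3 of them higher, where 23.8% of its genes were past it.

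Tfeb, the transcription factor that drives genes of autophagy and the lysosome, rose from 2.03 ± 0.0441 to 4.36 ± 0.272 FPKM (SD, n = 3). The highest shCON library was at 2.08 FPKM, and the shCdGAP libraries were at 4.67, 4.27 and 4.15, so the groups were far apart. The log2 difference was 0.82 (SE 0.094, adjusted p = 0.00254, limma), and Tfeb passed the threshold in all 14 alternative settings (adjusted p = 5.96e-04 to 0.0227). Its relative Tfe3 stood at 7.56 ± 1.13 FPKM in shCON and 5.72 ± 0.117 in shCdGAP and did not pass (log2 difference -0.34, adjusted p = 0.0998), and neither did Mitf (-0.14, adjusted p = 0.343). Both are named beside Tfeb after their values were seen. Tsc2, a subunit of the complex that restrains mTORC1, rose from 9.79 ± 0.665 to 13.5 ± 0.838 FPKM (log2 difference 0.42, SE 0.099, adjusted p = 0.0303). Rptor, the scaffold subunit of mTORC1, fell from 7.12 ± 0.345 to 5.05 ± 0.530 FPKM (-0.43, SE 0.11, adjusted p = 0.0373).

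Ctsl, the lysosomal protease cathepsin L, fell from 823 ± 29.4 to 459.6 ± 72.7 FPKM (log2 difference -0.85, SE 0.14, adjusted p = 0.00913, limma). It was the 1 called gene of 12 in the lysosome list, where 21.0% of all tested genes were called. Epg5, a tether for fusion of autophagosomes with lysosomes, fell from 6.74 ± 0.980 to 3.38 ± 0.800 FPKM (-0.83, SE 0.17, adjusted p = 0.0195), the 1 called gene of 13 in the fusion list. Without shCdGAP replicate 1, 8 of the 12 and 7 of the 13 were called, where 39.9% of tested genes were. Uvrag, a subunit of a Beclin 1 complex, fell from 20.4 ± 0.732 to 14.6 ± 1.81 FPKM (-0.46, SE 0.12, adjusted p = 0.0384). Without shCON replicate 2 all 6 calls but that of Tfeb were lost (limma), with adjusted p = 0.0519 for Ctsl, 0.0796 for Epg5, 0.127 for Uvrag, 0.122 for Rptor and 0.0996 for Tsc2. Over the 14 alternatives adjusted p was 7.83e-04 to 0.0519 for Ctsl, 6.42e-04 to 0.0796 for Epg5, 0.00960 to 0.132 for Uvrag, 0.0137 to 0.153 for Rptor and 0.0106 to 0.117 for Tsc2. Tsc2, Epg5 and Uvrag were lost without any single library but shCdGAP replicate 1. Rptor was lost without shCdGAP replicate 2 or any shCON library. Tsc2 was also lost with library size scaling (adjusted p = 0.0572), and Rptor and Uvrag with no filter on low genes (0.0566 and 0.0601). Cd68, a lysosomal membrane glycoprotein used here as an immune marker, was at 12.2 to 17.3 FPKM in shCON and 2.37 to 8.45 in shCdGAP, while Adgre1 was at 0 and Ptprc near 0. Csf1r, another immune marker, was at 0.212 to 0.490 FPKM in shCON and 0.363 to 1.14 in shCdGAP. The part of these markers in the lysosomal differences was not tested.

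In the other 5 lists, with 33 genes, limma called 0, against 21.0% of all tested genes. By limma-voom 0 were called, against 2938 of 13483 tested genes. The authors' deposited table called 1, Tollip, where 23.8% of its genes were called. At an unadjusted p under 0.05 there were 5 (limma), and no share of all tested genes is given for that threshold. Without shCdGAP replicate 1 limma called 8 of the 33 (24.2%, against 39.9% of tested genes). These are the initiation complex, lipid transfer and PI3P binding, the ATG8 conjugation enzymes, the ATG8 proteins and the cargo receptors. Their most abundant genes had similar means in both groups, apart from ATG8 genes and Optn. Atg101, of the initiation complex, was at 35.5 to 36.6 FPKM in shCON and 33.1 to 37.9 in shCdGAP. Atg13 was at 7.94 ± 0.729 and 7.85 ± 3.08 FPKM, with shCdGAP replicates 1, 2 and 3 at 11.4, 6.51 and 5.67. Without shCdGAP replicate 1 Atg13 was called lower (log2 difference -0.33, adjusted p = 0.0458, limma). The membrane protein gene Vmp1 was at 75.9 ± 17.8 and 72.7 ± 12.99 FPKM, and the PI3P-binding Wdr45b at 22.4 ± 1.68 and 22.6 ± 3.48. Of the conjugation genes, the ubiquitin-like Atg12 was at 16.2 ± 1.55 and 16.5 ± 2.03 FPKM, and Atg3, the enzyme that attaches ATG8 proteins to lipid, at 13.9 ± 0.746 and 12.2 ± 2.22. Among receptors, Optn was at 37.0 ± 4.93 and 44.8 ± 4.79 FPKM and Tax1bp1 at 31.5 ± 0.506 and 31.9 ± 1.14. The ATG8 genes Gabarap and Gabarapl1 were at 102 ± 11.8 and 126 ± 53.7, and at 24.4 ± 4.80 and 47.0 ± 32.6 FPKM, the large SD in shCdGAP coming with a high replicate 1. Gabarapl2, named after its values were seen, was above Gabarapl1 in shCON, at 25.7, 32.3 and 32.6 FPKM, and stood at 41.1, 38.0 and 40.2 in shCdGAP. Its groups did not overlap, and it passed the threshold without shCdGAP replicate 1 (log2 difference 0.37, adjusted p = 0.0484, limma) but not with it (0.39, adjusted p = 0.0701).

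**Figure D4:**
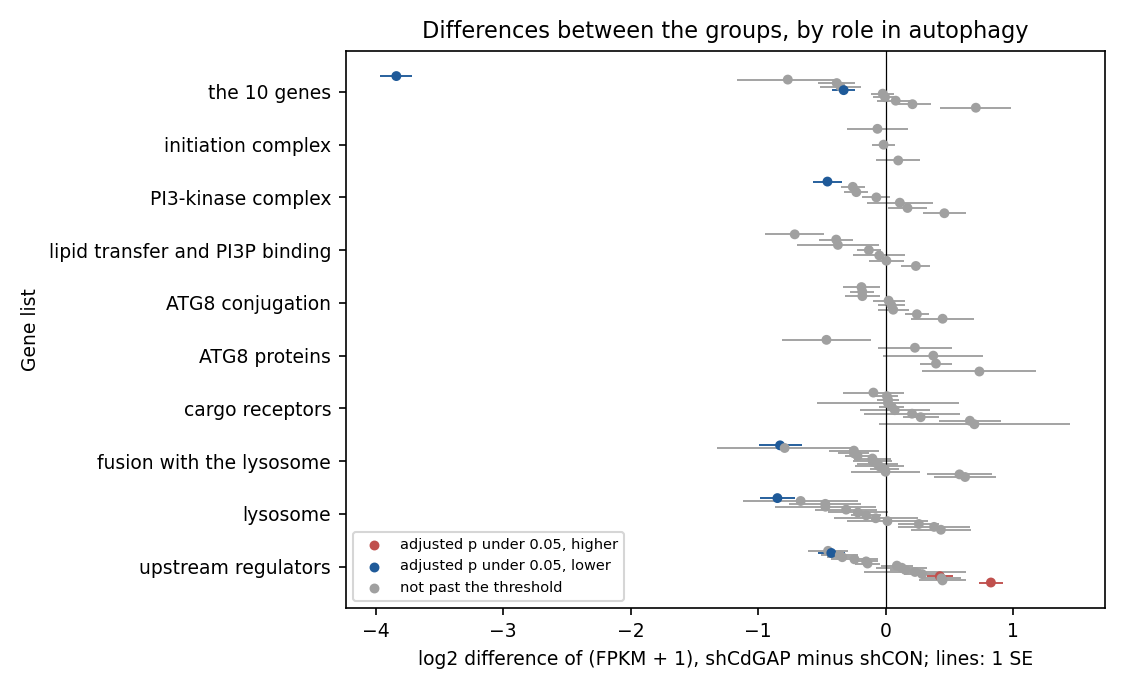
Difference in log2(FPKM + 1), shCdGAP minus shCON (horizontal axis, lines 1 SE each way), for the 10 genes and the 81 wider genes by list (vertical axis), coloured where limma's adjusted p was under 0.05. Atg9b lies at -3.84, apart from the wider genes, which lie between -0.85 and 0.82.

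Replicate 1 of shCdGAP held more RNA of many of these genes than the other libraries. It was the highest of the 6 libraries for 51 of the 81 wider genes (63.0%), against 31.5% of all tested genes, and the lowest for 7. All 5 ATG8 genes and all 10 cargo receptors were highest there, as were 10 of 12 lysosome genes and 10 of 13 fusion genes. In contrast, 3 of the first 10 genes, 2 of 7 lipid transfer genes and 5 of 16 upstream regulators were. The median ratio of replicate 1 to the mean of replicates 2 and 3 in shCdGAP was 2.49 for ATG8 genes, 1.81 for receptors and 1.94 for lysosome genes, against 1.02 for all tested genes. The following genes were picked after their values were seen. The LC3 gene Map1lc3b stood at 34.9 FPKM in that library, against 12.4 and 12.6 in shCdGAP replicates 2 and 3 and 12.6 to 15.05 in shCON. The receptor gene Calcoco1 stood at 59.9 FPKM, against 11.7 and 6.72, and 8.51 to 14.3 in shCON. The protease gene Ctsd stood at 506 FPKM, against 251 and 233, and 256 to 372 in shCON. That library also held the least Arhgap31 and Atg9b, whose ratios to the mean of replicates 2 and 3 were 0.190 and 0.639. In shCON, the ratio of replicate 1 to the mean of replicates 2 and 3 was 1.18 for Map1lc3b, 1.66 for Calcoco1 and 0.694 for Ctsd. Replicate 1 of shCdGAP is 1 library, so these differences have no replicate.

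**Figure D5:**
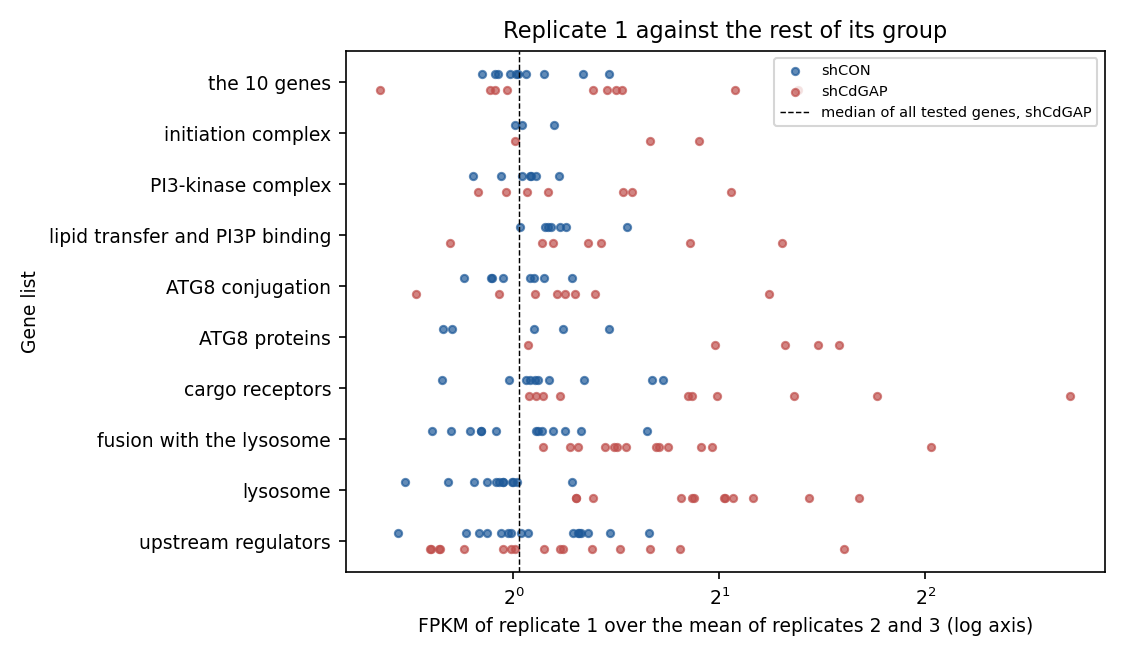
FPKM of replicate 1 divided by the mean of replicates 2 and 3 (horizontal axis, log scale) for each gene of the 10 and of the 9 wider lists (vertical axis), shCON in blue and shCdGAP in red, with a dashed line at the shCdGAP median of all tested genes, 1.02. The red points of ATG8, receptor, fusion and lysosome genes lie at or above 1.05, up to 6.51 for Calcoco1.

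Without that library more genes were called among all tested genes, 5373 against 2838, and more of the wider genes as well. Of the 81 genes, 31 were then called (38.3%, against 39.9% of tested genes), 7 higher and 24 lower, where 19.9% and 20.0% of tested genes were. The 6 genes called with all libraries were among these 31. The lysosome list then had 8 of 12 lower and the fusion list 6 of 13 lower and 1 higher, and the median log2 difference of the lysosome list moved from -0.19 to -0.46. Among the lysosomal enzymes called then, and picked after their values were seen, the hexosaminidase gene Hexa had a log2 difference of -1.20 (adjusted p = 9.84e-04, limma) and the sialidase gene Neu1 of -0.94 (adjusted p = 0.00122). With all 3 shCdGAP libraries neither passed (adjusted p = 0.350 and 0.451).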

How the data were processed

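RNA of 6 libraries, 3 shCON and 3 shCdGAP, was analysed from 1 deposited table. Per the submitters' processing notes, Trimmomatic, TopHat2 2.0.13, featureCounts and DESeq2 were used with build mm10, in roles that are not given. The authors deposited FPKM for every gene and library. Beside these, the deposited columns give the authors' own comparison, per the file headers, as a log2 fold change with SE, a score (the test statistic), a p-value before and after adjustment, and a mean signal of reads over size factors. No source used here states the authors' annotation release or strand setting.

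The deposited FPKM had been scaled by size factors. With each gene's ratio of mean signal to mean FPKM, and 1 factor fitted per library, they returned whole reads for 100% of values (tolerance 1e-06), which served for depth, filtering and limma-voom. The main test was limma 3.58.1 in R 4.3.3 (trend, robust) on log2(FPKM + 1), with group as the single term, 2-sided, Benjamini-Hochberg adjusted over 13483 genes with at least 10 scaled reads in at least 3 libraries and 15 in all. This scale understates changes of low genes. The fit was tested on simulated data with the same spread for every gene and no library set apart. These data differ in that, so the simulation does not bear on the effect of shCdGAP replicate 1.

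The 10 genes and all lists were chosen with earlier results of these data known. Named genes are the 10, up to 4 called genes of each list or its 2 highest by FPKM where none was called, and Arhgap31. Genes that share exonic bases with the 10 or lie within 10000 bases of Atg9b are named too. So are the 5 nearest in pattern among genes without a provisional symbol. Small RNA genes and pseudogenes inside Atg16l1, Atg5 and Atg7 that share no exonic bases with them are not named. Exceptions are marked, as are cell type markers. Of the 81 wider genes, 2 (Rubcn and Retreg1) were matched through a table of gene names. Positions are from GENCODE M21 (GRCm38). Plots used Python 3.11.15 and matplotlib 3.10.9.

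Pairing by replicate number was checked on each library's deviation from its group mean. The correlation over genes was 0.432 between the libraries numbered 1, 0.387 between those numbered 2 and 0.335 between those numbered 3. No label states a pairing. Between shCdGAP replicate 2 and shCON replicate 3 it was 0.354, and between shCdGAP replicate 3 and shCON replicate 2 it was 0.274. Between a library numbered 1 and one numbered 2 or 3 it was -0.443 to -0.349. Deviations within a group add up to 0, so a shift shared by the libraries numbered 1 raises the values among the others together. These values therefore cannot show a pairing of the libraries numbered 2 or 3. The main fit has no replicate block, and a block was an alternative, with library size scaling, limma-voom, a pseudocount of 0.1, other filters and each library left out. Quantile scaling was added after seeing the data.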

Additional observations from a re-analysis of the deposited data

How the results depend on the processing

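Atg9b was lower in all 14 alternative settings, with a log2 difference of -4.69 to -3.73. Atg16l1 passed the threshold in all but the fits without a filter, with the replicate block, with quantile scaling and without any single library other than shCdGAP replicate 1. Changes of sign were seen in genes that differed little: with 1 library left out, Atg5 ranged from -0.0745 to 0.0028, Atg9a from -0.0340 to 0.173 and Becn1 from -0.0538 to 0.0290. The sign of Atg5 and Atg9a turned without shCdGAP replicate 1, and that of Becn1 without that library (0.0290), shCON replicate 2 (0.0121) or shCON replicate 3 (0.0226). Leaving out both libraries numbered 1 put Atg5 at 0.0226. The count of changed genes was 1237 to 5373, against 2838, when 1 library was left out, lowest without shCON replicate 2 and highest without shCdGAP replicate 1. Without shCdGAP replicate 2 it was 1476, without shCON replicate 1 it was 1724, and without shCON replicate 3 it was 1332. Leaving out both libraries numbered 1 gave 6506. The count of changed wider autophagy genes was 1 to 31 of 81, against 6. It was lowest without shCON replicate 2, where 1237 of 13483 tested genes were called. It was highest without shCdGAP replicate 1 (38.3%, against 39.9% of tested genes). Without any of the other 4 libraries it was 2 or 3, where 1332 to 2146 of the tested genes were called. Leaving out both libraries numbered 1 gave 45 of 81 (13 higher, 32 lower), where 6506 of 13483 tested genes were called (3276 higher, 3230 lower). Fewer libraries were fitted in these settings, and why counts rose without replicate 1 was not tested. With the replicate block, 2458 genes and 5 wider genes were called. Library size scaling moved the median of all genes to -0.052 and the share of calls that were higher from 47.1% to 39.5%. Depth limits Atg9b most in shCdGAP, where 78 to 126 reads stand behind each value.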
